A study of Rana pirica with 9 samples.

Results

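Ion channel genes were examined in brains of Rana pirica tadpoles, a brown frog, with or without exposure to a predator. The genes were those of the potassium (kcn), calcium (cacn), sodium (scn), HCN (hcn) and chloride (clcn) channel families, taken by symbol from the platform annotation where a probe set had a single symbol. The rule gave 40 probe sets for 31 genes, out of 9304 probe sets with 1 symbol for 6485 genes and 15491 probe sets tested in all. By family these were 26 potassium, 7 calcium, 3 sodium and 4 chloride channel probe sets, and 0 HCN probe sets. In the salamander group, tadpoles were kept with larval salamanders for 8 days and gave 3 arrays. The control group was kept for the same 8 days without predators and gave 6 arrays. Each array carried RNA pooled from 10 brains of tadpoles at a stage before hind limb growth, so that the spread between arrays is one between pools. The labels give no strain, genotype or sex for either group. The comparison asks whether transcripts of these channels differed in brains of tadpoles that had lived with salamander larvae.

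Voltage-gated channels open and close with the membrane potential and shape the firing of neurons. Sodium channels carry the upstroke of the action potential, potassium channels repolarize the membrane and set its resting level, and calcium channels couple depolarization to transmitter release and to signalling inside the cell. The pore-forming subunits of many of these channels assemble with accessory subunits that change their gating or their transport to the membrane. The clcn genes measured here encode family members that mainly sit in endosomal and lysosomal membranes, where they exchange chloride for protons.

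RNA of Rana pirica was hybridized to Affymetrix arrays designed for the clawed frog Xenopus laevis, whose symbols end in .L or .S for the gene copies of its long and short subgenomes. The deposited values were read as log2 signals, a base that the labels do not state and on which every fold given here rests. The median of the controls was 0 for each probe set, so the values compare arrays and give no level. Whether the tissue held the defining transcripts of brain can therefore not be read from levels. A rounding mark in a value shows that the signal of that array or the control median of the probe set was below 256. Values with the mark are called weak here, and the mark does not find all such cases. Of the 15 probe sets for 11 neuronal marker genes, 10 had at most 1 weak value among the 9 arrays, and of the 22 for 10 muscle marker genes, 10 did. Among the 40 ion channel probe sets 26 had at most 1 weak value (65.0%, against 47.2% of all probe sets). Genes were counted by symbol without the endings .L, .S, -a or -b, so probe sets of both gene copies count as 1 gene. Differences named for a gene carry a further doubt, since probe sets of the same gene, so counted, did not move together. The correlation of such a pair over the 9 arrays had a median of -0.010 among 4219 pairs of all genes, and of -0.030 among the 1066 pairs in which both had at most 1 weak value. Of 97 ribosomal protein probe sets, a list chosen after values were seen, 70 had at most 1 weak value (72.2%). Whether each row holds the values of the probe set it names could not be checked from the deposited values, and this touches every value given for a gene. By their poly-A spike-in RNAs the arrays fell into those with a mean of 1.27 to 1.69 on the log2 scale (salamander 1 and 2, control 2, 3 and 4) and those with a mean of -2.25 to -1.76 (salamander 3, control 1, 5 and 6), called high and low spike-in arrays below. Within-level differences are given beside results, and those on the low spike-in arrays rest on a single salamander array.

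No ion channel probe set passed the test of salamander-exposed against control tadpoles. Limma's adjusted p-values for the 40 probe sets ran from 0.767 to 0.999, and 0 were called at the threshold of 0.05, as among all 15491 probe sets, where 0% were called. At an unadjusted p under 0.05, 1 probe set was higher (2.5%, against 2.12% of all probe sets) and 4 were lower (10.0%, against 3.03% of all). An ordinary linear model without moderation also called 0, with 1 higher and 5 lower at an unadjusted p under 0.05. The differences ran from -1.72 to 2.0 on the log2 scale with a median of -0.21, while the median over all probe sets was 0.0016. A difference below 0 was found in 26 of 40 ion channel probe sets (65.0%) and in 49.9% of all probe sets. Averaged per gene, 21 of 31 genes were below 0, against 50% of all genes, with a median of -0.19. The largest differences belonged to kcnq1, cacnb3 and clcn3, each of which had a second probe set at another value. In bulk tissue, fewer cells of a type and less RNA per cell cannot be told apart.

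The arrays bounded the size of these differences loosely. The 95% confidence interval excluded a 4-fold difference in either direction for 28 of 40 ion channel probe sets (70.0%, against 54.6% of all probe sets). It excluded a 2-fold difference for 0 of the 40, against 2.78% of all. These counts depend on moderation, under which the smallest SE among the 40 was 0.39. Without moderation 3 had 2-fold and 18 had 4-fold excluded. Over the ion channel probe sets the replicate SD had a median of 0.89 and ranged from 0.22 for a kcnk5 probe set to 1.58 for cacna1s. Over all probe sets the median SD was 0.96. This SD is that of each probe set alone, while SEs and intervals rest on limma's moderated variance. An SE can therefore be larger than the SD of its probe set would give. Without any 1 of the 3 salamander arrays, the count with a 4-fold difference excluded was 14 or 15 in place of 28.

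**Figure D1:**
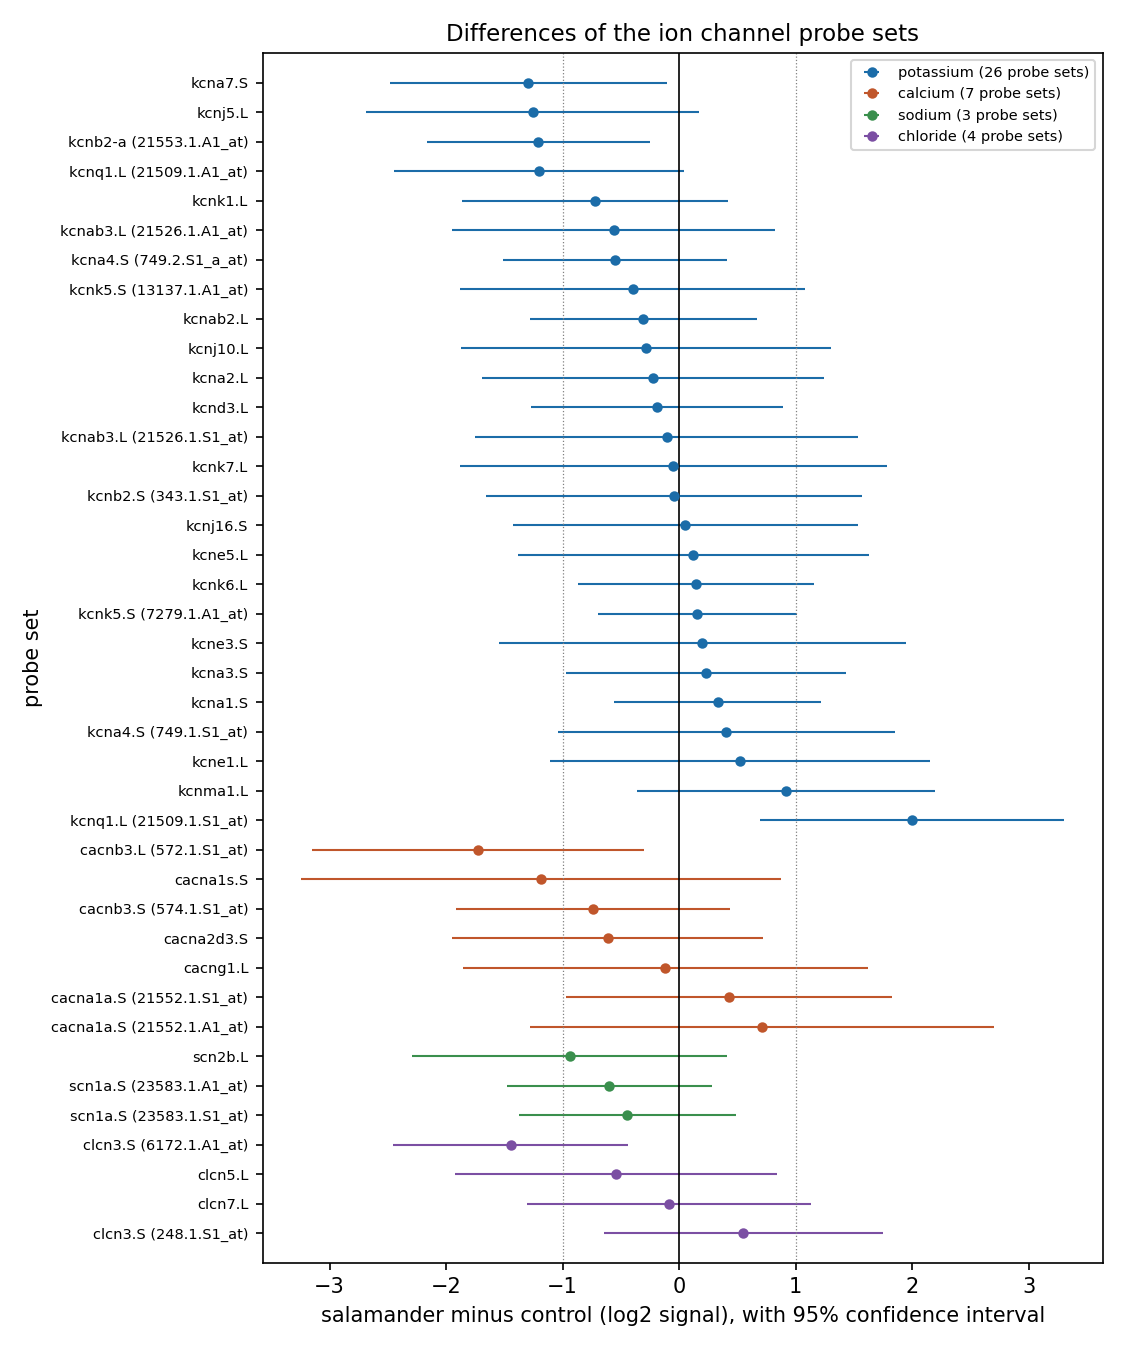
Salamander minus control difference (log2 signal, x axis) of each of the 40 ion channel probe sets (y axis, grouped by family), with bars for the 95% confidence interval and dotted lines at a 2-fold difference. Points run from -1.72 for cacnb3.L to 2.0 for kcnq1.L, and no interval lies wholly within the dotted lines.

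Among the voltage-gated potassium channels of the kcna, kcnb and kcnd families, 6 of 9 probe sets were below 0, with a median difference of -0.19. The smallest unadjusted p belonged to the probe set kcnb2-a, named for a delayed rectifier. Its values on the 3 salamander arrays were -1.60, -0.37 and -1.53, and those on the 6 control arrays were 0.19, -0.10, 0.43, 0.00, -0.26 and 0.00. All salamander arrays lay below all controls, salamander 2 only just. The difference was -1.21 (SE 0.44, n = 3 and 6), or 2.31-fold lower, with an adjusted p of 0.866 in limma, and it was -1.09 within the high and -1.50 within the low spike-in arrays. The second kcnb2 probe set, kcnb2.S, stood at -0.04 (95% interval -1.65 to 1.57), and its groups overlapped.

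The probe set of kcna7, a voltage-gated channel of the Shaker family, had values of 0.09, -2.22 and -1.67 on the salamander arrays and -0.07, -0.28, 0.38, -0.49, 0.55 and 0.07 on the control arrays. Salamander 2 and 3 lay below every control, while salamander 1 lay among them. The difference was -1.30 (SE 0.54) with an adjusted p of 0.910 in limma, and it came to -1.97 without salamander 1 and to -0.82 without salamander 2.

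Other Shaker channels, which neurons use to shorten and space action potentials, were closer to 0. The axonal channel kcna1 had 0.47, 0.08 and 0.02 on the salamander arrays against 0.12, -0.54, -0.12, -0.54, 0.13 and 0.13 on the control arrays, a difference of 0.33 (95% interval -0.56 to 1.22). Its replicate SD of 0.30 was among the smallest of the members. For kcna2, which often pairs with kcna1 in axons, the difference was -0.22 (interval -1.69 to 1.24), and for kcna3 it was 0.23 (interval -0.97 to 1.43). Both probe sets of kcna4, a rapidly inactivating channel, had intervals across 0, with differences of 0.40 and -0.55. The A-type channel kcnd3 stood at -0.19 (interval -1.27 to 0.89). With 1 array left out the sign turned for kcna2, kcna3, kcnd3 and the first kcna4 probe set.

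The gene kcnq1, whose channel works with kcne subunits in heart and epithelia, gave the highest difference and one of the lowest at the same time. On its probe set Xl.21509.1.S1_at the salamander arrays read 2.66, 3.08 and 0.60, and the control arrays 0.49, -0.32, 1.02, -0.53, 0.04 and -0.04. Salamander 1 and 2 lay above every control, and salamander 3, a low spike-in array, lay below control 3. The difference was 2.0 (SE 0.60), or 4.0-fold, with an adjusted p of 0.767 in limma (0.00609 unadjusted). It was 2.81 within the high and 0.43 within the low spike-in arrays, and 2.76 without salamander 3. On all 6 control arrays and 2 of the 3 salamander arrays the value was marked as weak, so the fold rests on values marked as weak in the controls.

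The other kcnq1 probe set, Xl.21509.1.A1_at, whose identifier differs only in its ending, read -1.54, -1.17 and -0.36 on the salamander arrays and 0.33, -0.69, -0.33, 0.49, 1.65 and -0.37 on the control arrays. The groups overlapped through salamander 3. Its difference was -1.21 (SE 0.57, adjusted p = 0.945 in limma). The 95% intervals of these probe sets, 0.69 to 3.31 and -2.45 to 0.04, did not overlap, so that the mean over the gene, 0.40, describes neither. The labels and the annotation do not say what the endings A1 and S1 stand for.

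The large calcium-activated channel kcnma1, which links calcium entry to repolarization, had 2.20, 0.88 and -0.18 on the salamander arrays and 0.70, 0.00, -0.87, 0.00, 0.76 and -0.30 on the control arrays. Salamander 1 and 2 were above every control and salamander 3 was among them. The difference of 0.92 (SE 0.59, adjusted p = 0.986 in limma) was 1.83 within the high spike-in arrays and -0.56 within the low ones, and 0.30 without salamander 1.

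Of the inward rectifiers, which hold neurons and glia near rest, the G protein-gated kcnj5 stood lowest. Its salamander arrays read -2.21, -2.29 and -0.10 and its control arrays -1.66, 0.40, -0.11, 0.11, 0.55 and -0.93, with a difference of -1.26 (95% interval -2.69 to 0.17). Salamander 1 and 2 lay below every control, and salamander 3 lay within their range. Within the high spike-in arrays the difference was -2.38 and within the low ones 0.58. The glial potassium channel kcnj10 was at -0.28 (interval -1.87 to 1.30) and its partner subunit kcnj16 at 0.05 (interval -1.43 to 1.54). Weak values were marked on 6 of 9 arrays for kcnj10 and on 4 for kcnj16.

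The tandem-pore family holds many channels that carry leak current. Its differences were -0.72 for kcnk1, 0.14 for kcnk6, -0.05 for kcnk7, and -0.40 and 0.16 for the probe sets of kcnk5. The value of kcnk1 came mainly from salamander 2, at -2.13, since salamander 1 and 3 read -0.18 and -0.05 and the control arrays lay between -0.41 and 0.27. Without salamander 2 its difference was -0.05. One kcnk5 probe set, Xl.7279.1.A1_at, had the smallest replicate SD of all members, 0.22, and its interval of -0.70 to 1.01 was the narrowest.

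Accessory potassium channel subunits divided evenly, with 3 of 6 probe sets below 0 and a median of 0.0070. The cytoplasmic beta subunit genes kcnab2 and kcnab3 had differences of -0.31 for kcnab2, and of -0.56 and -0.11 for the probe sets of kcnab3. Without salamander 2 kcnab2 was at -0.018, and the second kcnab3 probe set was marked as weak on 8 of 9 arrays. Among the small membrane subunits, kcne1 was at 0.52, kcne3 at 0.20 and kcne5 at 0.12. The replicate SD of kcne3 was 1.29, with salamander arrays at 1.71, 0.55 and -1.81. Leaving out 1 array turned the sign of both kcnab3 probe sets, of kcne3 and of kcne5.

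**Figure D2:**
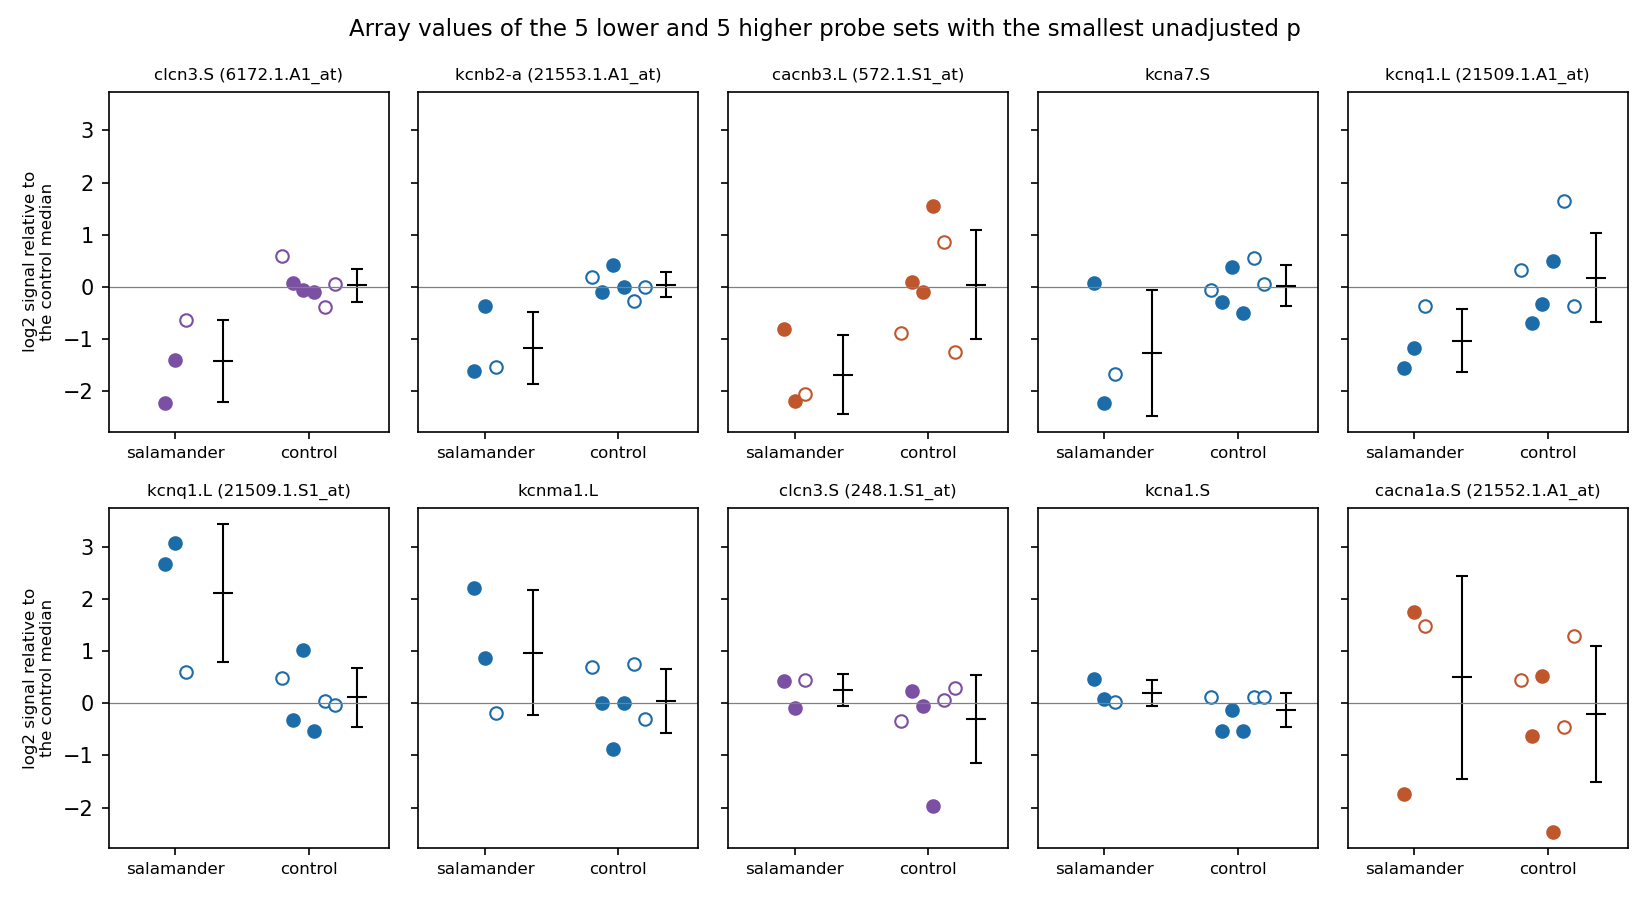
Log2 signal relative to the control median (y axis) on each array for the 5 lower (upper row) and 5 higher (lower row) ion channel probe sets with the smallest unadjusted p. Filled circles are high and open circles low spike-in arrays, and bars give the group mean and SD (n = 3 salamander, n = 6 control). In clcn3.S (6172.1.A1_at) and kcnb2-a all salamander arrays lie below all controls, and in the other 8 the groups overlap.

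Of the 7 calcium channel probe sets 5 were below 0, with a median of -0.61, which was -0.34 without salamander 3 and -0.20 within the high spike-in arrays. Both probe sets of cacnb3, the beta subunit that carries the pore to the membrane, were on this side. The probe set cacnb3.L, named for the Xenopus .L gene, read -0.80, -2.18 and -2.06 on the salamander arrays. On the control arrays it read -0.88, 0.10, -0.10, 1.56, 0.85 and -1.24. Salamander 2 and 3 lay below every control, and salamander 1 lay above the lowest controls. The difference was -1.72 (SE 0.65), or 3.30-fold lower, with an adjusted p of 0.866 in limma, at -2.01 within the high and -1.63 within the low spike-in arrays.

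The probe set cacnb3.S, named for the Xenopus .S gene, read -0.92, -1.64 and 0.20 on the salamander arrays. On the control arrays it read -0.70, 0.91, 0.02, -0.02, -0.68 and 0.21. Its difference of -0.74 (SE 0.54, adjusted p = 0.986 in limma) was -1.58 within the high and 0.59 within the low spike-in arrays, and -0.32 without salamander 2. Averaged over both probe sets, cacnb3 was at -1.23 (SE 0.46), and the adjusted p over all genes was 0.953 in limma. In this average the groups were apart only narrowly, while they overlapped on each probe set alone. The share of all genes without overlap was not counted. The cacnb3.L probe set was marked as weak on 3 of 9 arrays. By unadjusted p under 0.05, cacnb3 and kcna7 were the 2 ion channel genes on the lower side, where 2.73% of all genes were, and 0 were on the higher side, where 2.08% of all genes were.

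The pore subunit cacna1a, of the presynaptic P/Q-type channel, gave positive differences on both of its probe sets, 0.71 (interval -1.28 to 2.70) and 0.43 (interval -0.97 to 1.83). The first of these read -1.74, 1.75 and 1.48 on the salamander arrays and 0.45, -0.63, 0.52, -2.46, -0.45 and 1.29 on the control arrays. Salamander 2 and 3 lay above every control, and salamander 1 lay below all but control 4. Its difference moved to 0.08 without salamander 2 and to 1.83 without salamander 1. The alpha2delta subunit cacna2d3, which raises channel density, was at -0.61 (interval -1.95 to 0.72). The subunits of the skeletal muscle channel were at -1.19 for the voltage sensor cacna1s (interval -3.25 to 0.87) and at -0.12 for cacng1. The cacna1s value was -0.61 without salamander 2 and -0.64 without control 6, and it was marked as weak on 5 of 9 arrays, among them all 3 salamander arrays. Muscle marker genes, which a dissected brain can carry along, were above 0 in 8 of 10 cases, with mean list values of 0.11 to 0.21 on the salamander arrays and -0.39 to 0.22 on the control arrays. Their part in the cacna1s value was not tested.

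All 3 sodium channel probe sets were below 0. For scn1a, a pore subunit of neuronal sodium channels, the probe set Xl.23583.1.A1_at read -0.49, -0.89 and -0.18 on the salamander arrays and -0.10, 0.28, -0.16, 0.47, -0.04 and 0.04 on the control arrays. Every salamander array lay below every control, though salamander 3 and control 3 lay close together. The difference was -0.60 (SE 0.40, adjusted p = 0.986 in limma) with a replicate SD of 0.28, and it was -0.89 within the high and -0.15 within the low spike-in arrays. The second scn1a probe set read -0.09, -0.51 and -0.95 on the salamander arrays and 0.40, 0.03, -0.03, 0.05, -0.67 and -0.22 on the control arrays. There the groups overlapped, with a difference of -0.45 (95% interval -1.38 to 0.48).

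The sodium channel beta subunit scn2b rested on a single array. Its salamander values were -0.42, 0.25 and -2.72, against 0.22, 0.56, -0.38, -0.54, -0.22 and 0.23 on the control arrays. Salamander 3 lay far below every control and the others lay among them. The difference of -0.94 (SE 0.62, adjusted p = 0.986 in limma) was -0.06 without salamander 3, 0.03 within the high spike-in arrays and -2.79 within the low ones.

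Of the 4 chloride channel probe sets 3 were below 0. For clcn3, an exchanger of endosomes and synaptic vesicles, the probe set Xl.6172.1.A1_at read -2.22, -1.39 and -0.64 on the salamander arrays and 0.59, 0.09, -0.06, -0.10, -0.38 and 0.06 on the control arrays. The groups did not overlap. The difference was -1.45 (SE 0.46), or 2.72-fold lower, with an adjusted p of 0.798 in limma (0.00897 unadjusted), at -1.78 within the high and -0.73 within the low spike-in arrays.

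The second clcn3 probe set, Xl.248.1.S1_at, went the other way. Its salamander arrays read 0.42, -0.09 and 0.44 and its control arrays -0.33, 0.23, -0.06, -1.96, 0.06 and 0.29. Control 4 lay far below the rest, and the difference of 0.55 (SE 0.55) was 0.22 without it. Neither probe set had more than 1 weak value. The endosomal exchanger clcn5 was at -0.54 (interval -1.93 to 0.84) and the lysosomal clcn7 at -0.09 (interval -1.31 to 1.13), and both turned sign without salamander 1.

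Groups that did not overlap were found for 3 ion channel probe sets (7.5%, against 2.33% of all probe sets), namely those of clcn3, kcnb2-a and scn1a given above. All 3 were lower in the salamander group, where 1.24% of all probe sets were, and 0 were higher, where 1.09% of all were. Pore-forming subunits had 18 of 29 probe sets below 0 with a median of -0.19, and accessory subunits 8 of 11 with a median of -0.31.

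A pair of probe sets was present for 9 of the 31 genes. Their differences had the same sign in 5 of the 9 pairs (55.6%, against 49.9% of the 4219 pairs over all genes), namely cacna1a, cacnb3, kcnab3, kcnb2 and scn1a. They had opposite signs for clcn3, kcna4, kcnk5 and kcnq1. The gap between the differences of a pair had a median of 0.96, against 0.68 over all pairs, and ran from 0.16 for scn1a to 3.21 for kcnq1. How well each Xenopus probe set reads its Rana transcript was not tested.

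**Figure D3:**
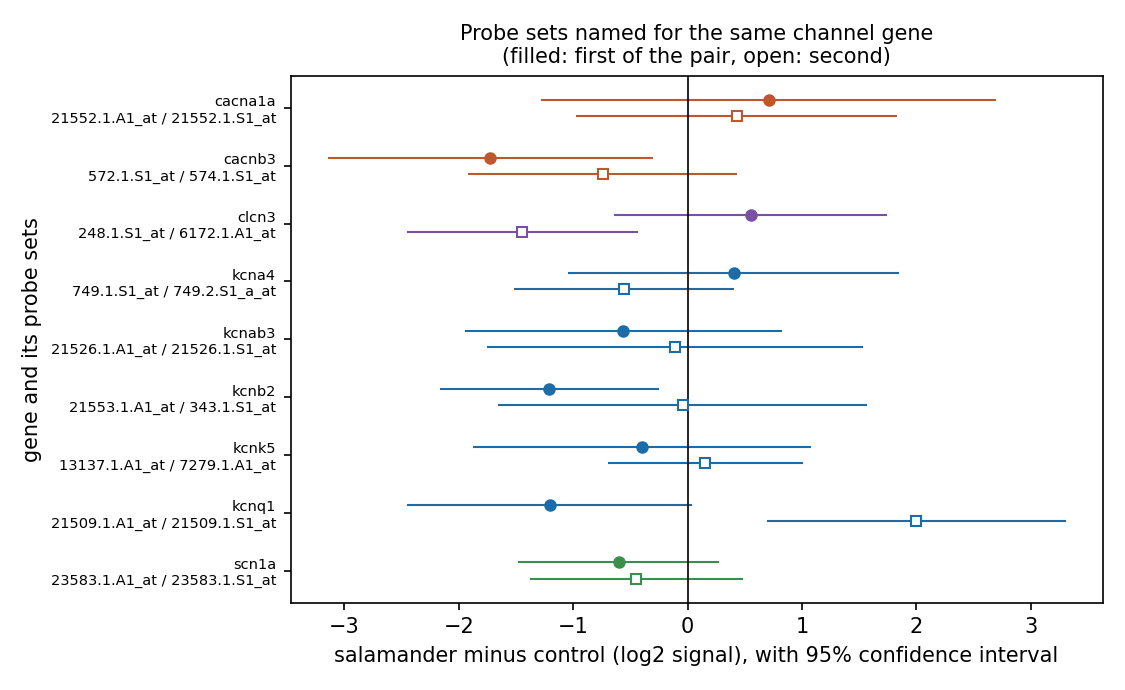
Salamander minus control difference (log2 signal, x axis) with 95% confidence interval for both probe sets of each of the 9 channel genes with a pair (y axis). The intervals overlap in all pairs but kcnq1, whose probe sets stand at -1.21 and 2.0.

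By array, the median over the 40 ion channel probe sets was -0.26, -0.15 and -0.18 on the salamander arrays and 0.18, 0.05, -0.11, -0.01, -0.03 and 0.04 on the control arrays. The salamander arrays were the lowest, the nearest control being control 3, while medians over all probe sets stayed between -0.01 and 0.01. For the 3 sodium channel probe sets the medians were -0.42, -0.51 and -0.95 on the salamander arrays, all below the control range of -0.22 to 0.28. The groups overlapped for the potassium medians, at -0.18, 0.02 and -0.18 on the salamander arrays against -0.19 to 0.09 on the control arrays. They overlapped too for the calcium medians, at -0.48, -0.99 and -0.08 against -0.45 to 0.75 on the control arrays. Chloride medians, at -1.16, -0.28 and 0.30 on the salamander arrays, spanned more than the control range of -0.25 to 0.53. These medians are descriptions, since control values are centred by construction and pairs of probe sets share a gene.

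**Figure D4:**
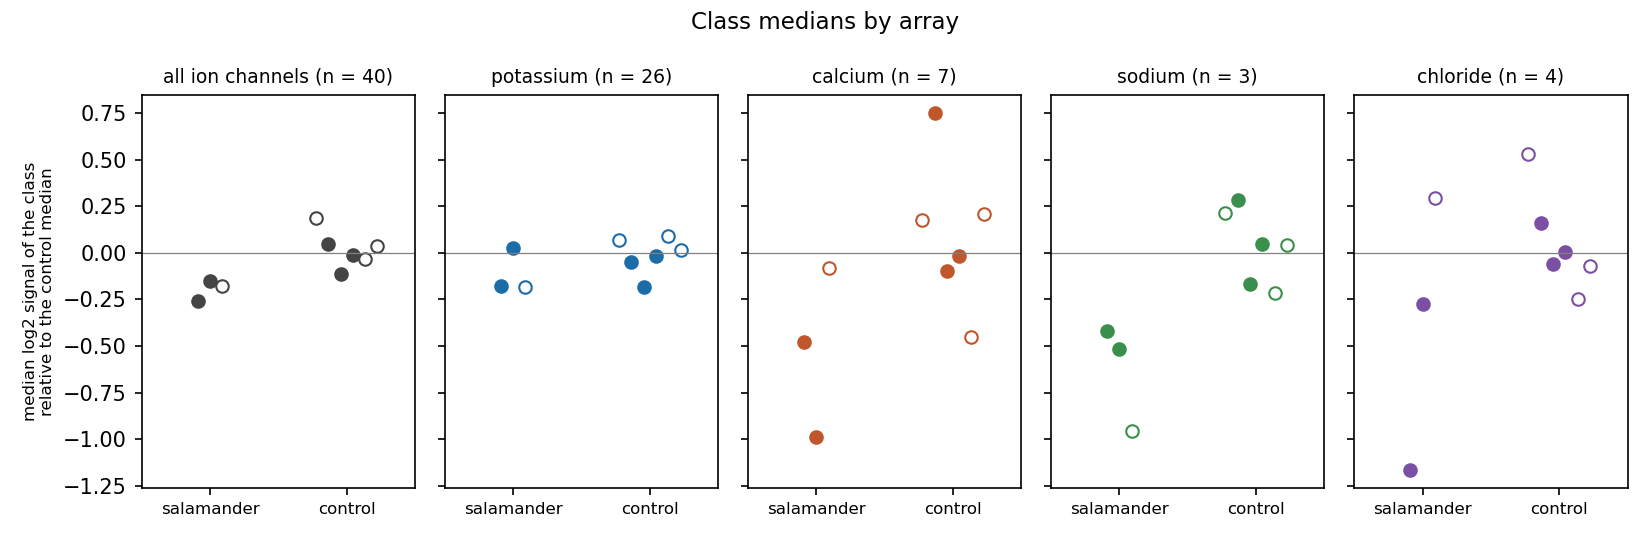
Median log2 signal relative to the control median (y axis) over the probe sets of each channel family, by array. Filled circles are high and open circles low spike-in arrays. Over all 40 probe sets the 3 salamander arrays sit between -0.26 and -0.15, below the 6 control arrays at -0.11 to 0.18.

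Of the 11 neuronal marker genes measured, 9 were above 0, while of all genes 50% were below 0. Their median was 0.61, and 0 were called. The mean of the list was 0.50 to 0.97 on the salamander arrays and -0.18 to 0.16 on the control arrays. The intermediate filament gene ina, at 2.68, and the neurofilament gene nefm, at 0.86, had an unadjusted p under 0.05 in limma. On that higher side were 2.08% of all genes, and neither gene passed over all genes. Of the other neuronal genes, syn1 was at 0.92, nefl at 0.85, snap25 at 0.78, elavl3 at 0.61 and syn2 at 0.38. Nearer to no difference were tubb3 at 0.19, syt1 at 0.052, gap43 at -7.9e-05 and elavl4 at -0.068. For the glial list, 1 of 3 genes was above 0. Of the 4 red cell genes 3 were below 0, with a median of -0.95 and a mean of the list of -0.96 to -0.67 on the salamander arrays and -0.88 to 0.68 on the control arrays. Lowest among them was the anion exchanger slc4a1 at -1.90 (SE 0.54), with an adjusted p of 0.756 in limma (0.00460 unadjusted). On the lower side, 2.73% of all genes had an unadjusted p under 0.05. Of the other red cell genes, hba3 was at -1.58 and hba1 at -0.31, while hbd went the other way at 1.05. Of the retina and lens genes 4 of 6 were above 0, as was the 1 skin gene measured. The list means are descriptions, since control values are centred by construction and the lists were chosen with earlier results known. The part of these lists in the channel values was not tested.

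Genes that act beside the channels gave no call either, with 0 passing in each of 3 lists. Pumps and exchangers that maintain the ion gradients had 4 of 9 genes above 0 and a median of -0.14, among them the sodium pump subunit atp1b1 at -0.35 (SE 0.34) and the sodium-calcium exchanger slc8a1 at 0.94 (SE 0.81). A list of channels of other families and related genes, such as stim1, had 13 of 23 genes above 0 and a median of 0.13. In that list the epithelial sodium channel subunit scnn1b was at 1.04 (SE 0.50) and ttyh2 at -0.82 (SE 0.39). Next by unadjusted p in limma came p2rx7 at -0.62 (SE 0.35) and the calcium sensor stim1 at 0.58 (SE 0.35). Of the channel partners 3 genes were measured, namely the potassium channel partner dpp10 at -0.06 (SE 0.37), the axonal adhesion protein cntn1 at 0.50 (SE 0.86) and nedd4l, a ubiquitin ligase that acts on sodium channels, at 1.44 (SE 0.63). The median difference over all 6485 genes was -0.00020.

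Of 34 pore-forming channel genes listed for their textbook roles, 10 were measured and are given above. The others were not analysed here. The annotation used gives no chromosome positions.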

How the data were processed

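Gene expression in pooled tadpole brains was measured on 9 one-colour Affymetrix Xenopus arrays (3 salamander, 6 control), grouped and numbered by sample title. The authors computed signals with MAS5, per the submitters' processing notes, which name no version. Values read as log2 were deposited for 15611 probe sets, with 0 columns of other samples. Every probe set had a control median of 0 (largest departure 9.5e-07), so the authors had centred each row on it. The logarithm, its base and the scaling between arrays are not stated, and the logarithm and its base were inferred from the values. The number of arrays limits the precision.

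After leaving out 120 Affymetrix control probe sets, limma's lmFit and eBayes without a trend were fitted to all 15491 probe sets, and to means per gene (6485 genes). P-values were two-sided, adjusted by Benjamini-Hochberg and called under 0.05. Values off the single-precision step of a log2 signal of 8 or more were marked as weak. Fits used limma 3.58.1 in R 4.3.3, and figures used matplotlib 3.10.9 in Python 3.11.15.

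Array values are given for the 5 members with the smallest p on each side and the 2 of each family. Genes with 2 probe sets and textbook channels are named too, and every member is listed. Array values of kcnj5, of the second scn1a probe set and, in part, of kcnk1 and kcne3 were added after the values were seen, as were the related genes named. Members and lists were chosen with earlier results of these data known. Alternatives were leaving out each array, 2 other scalings, 3 other variance models, spike-in level, replicate number, a filter on weak values, unique probe sets and gene means.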

Additional observations from a re-analysis of the deposited data

Results flagged for a closer look

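In 1 ion channel probe set a control array stood apart from the other 5. For clcn3.S (Xl.248.1.S1_at), control 4 read -1.96, and the nearest control read -0.33. This gap was 0.722 of the range of the 6 controls, above the Dixon limit of 0.625. Dixon's test was applied to the controls of 45 values, and chance flags about 1 in 20. These were 40 probe sets and 5 medians, over all members and over the potassium, calcium, sodium and chloride families. The salamander group, with 3 arrays, was not tested.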

How the results depend on the processing

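No ion channel probe set was called under any alternative run, and 24 of the 40 kept their sign with any 1 array left out. Alternatives for linear signals were not run, since the values were read as log2. With 1 array left out, the probe sets with an unadjusted p under 0.05 numbered 1 to 2 on the higher and 2 to 5 on the lower side. Those with 2-fold excluded numbered 0 to 1 and those with 4-fold excluded 14 to 24. The median difference was -0.36 to -0.12 over all members, -0.24 to 0.040 for potassium, -0.71 to -0.34 for calcium, -0.66 to -0.23 for sodium and -0.60 to 0.16 for chloride channels. The 2 higher came without salamander 3, the 2 lower without salamander 1, the 5 lower without control 1 or 2, the 14 without salamander 1 or 2, the 24 without control 1 and the 1 without control 6. Medians had their extremes without salamander 1 or 3, apart from -0.71 without control 3.

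Within the high spike-in arrays 2 probe sets were higher at an unadjusted p under 0.05, 9 had 4-fold excluded, and the medians were -0.18 for potassium, -0.20 for calcium, -0.32 for sodium and -0.61 for chloride channels. Within the low ones 0 were higher and 2 lower, 5 had 4-fold excluded, and the medians were -0.037, -0.43, -0.79 and 0.10 in the same order. These fits hold fewer arrays. Without moderation, 3 had 2-fold and 18 had 4-fold excluded. Among bright probe sets alone 0 were higher, 17 of 26 had a difference below 0, 1 had 2-fold excluded, and the potassium median was -0.19. With gene means 0 were higher and 2 lower, and 1 had 2-fold excluded.

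The replicate number as a block left 0 higher and 1 lower at an unadjusted p under 0.05, and 15 with 4-fold excluded, with a chloride median of -0.54. In this fit control 4, 5 and 6 have no salamander array of their number and drop out of the comparison. Its differences therefore rest on control 1, 2 and 3 alone, whether or not the numbers pair the arrays. The labels only number the replicates, and deviations of same-numbered arrays correlated at 0.0059, 0.0159 and -0.0049. Salamander 1 correlated at 0.0013, 0.0072 and -0.0028 with control 2, 3 and 4, which share its spike-in level. Salamander 2 correlated at 0.0159, -0.0023 and -6e-04 with these same controls, which share its level too. Salamander 3 correlated at 1e-04, 0.0095 and 0.0091 with control 1, 5 and 6, which share its level. Since this known grouping gave such small correlations, the check cannot decide whether the numbers pair the arrays. Only salamander 2 correlated best with its own number. Under this block kcne1 was at -0.27, kcne5 at -0.16, kcnk5 (Xl.7279.1.A1_at) at -0.0096, kcnk7 at 0.071 and kcnb2.S at 0.10.

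The sign turned with 1 array left out in 16 probe sets. Their ranges were -0.62 to 0.28 for cacng1, -1.09 to 0.040 for clcn5, -0.42 to 0.27 for clcn7, -1.16 to 0.12 and -0.38 to 0.25 for kcnab3 (A1 and S1), -0.58 to 1.18 for kcne3, -0.49 to 0.67 for kcne5, -0.96 to 0.41 for kcnj10 and -0.38 to 0.46 for kcnj16. They were -0.12 to 0.34 for kcnk6, -0.75 to 0.38 for kcnk7, -0.55 to 0.22 for kcna2, -0.042 to 0.57 for kcna3, -0.15 to 1.21 for kcna4 (Xl.749.1.S1_at), -0.88 to 0.39 for kcnb2.S and -0.40 to 0.16 for kcnd3.

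Within the high spike-in arrays 12 turned, with cacna2d3 at 0.057, clcn7 at 0.093, kcnab3 at 0.36 (A1) and 0.76 (S1), kcne5 at -0.22, kcnj16 at -0.39, kcnk6 at -0.22, kcnk7 at 1.24, kcna4 (Xl.749.1.S1_at) at -0.15, kcnb2.S at 0.20, kcnd3 at 0.12 and scn2b at 0.035. Within the low ones 8 turned, with cacnb3.S at 0.59, clcn5 at 0.78, kcne3 at -2.16, kcnma1 at -0.56, kcnj10 at 0.99, kcnj5 at 0.58, kcnk1 at 0.0041 and kcna1 at -0.10. With spike-in level as a block kcnk7 was at 0.083. The cause of these turns was not tested. Other scalings, robust moderation, array weights and leaving out probe sets ending in _s_at, _x_at or _a_at turned 0.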
